A study of Drosophila melanogaster with 20 samples.

Results

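The genes described here were those with more RNA in the heads of all 3 mutant genotypes of the series than in wild type, and with no large further step in the double mutant. Levels are in CPM, the share of a library's total count taken by the gene, times 1e6. A member had a mean raw count of at least 20 over the 20 libraries, and each of its 15 mutant libraries lay above each of its 5 wild-type libraries. In addition, each mutant group mean was at least 1.4 times the wild-type mean, and the ΔfneΔrbp9 mean was under 1.4 times the higher of the Δfne and Δrbp9 means. The rule held for 116 of the 17558 genes in the count table, that is, for 116 of the 9856 genes with a mean count of at least 20. Members were thus chosen by their CPM in all 20 libraries, so every level relative to wild type, and every level of ΔfneΔrbp9 relative to the single mutants, is given below as a description without a test.

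Total RNA depleted of ribosomal RNA was sequenced from pooled heads of adult Drosophila melanogaster, 1 day after eclosion, in 4 genotypes with 5 libraries each. Males and females were both used. ΔfneΔrbp9 flies carried the fne alleles of Δfne together with the rbp9 alleles of Δrbp9. Females of the Δfne genotype carried Df(1)fneΔ over fneKOZ2, and males had either of these alleles on their X chromosome, where fne lies. By its name Df(1)fneΔ is an X chromosome deficiency. Δrbp9 flies of either sex were rbp9P2690/Df(2L)ED206, Df(2L)ED206 being a deficiency of the second chromosome. Wild type was the stock w1118, which is named after its null allele of w. The mutations were carried in all cells and not in neurons alone. Loss of the proteins and other differences between the mutant and w1118 stocks, in alleles, background or rearing, cannot be told apart in this design, and all 3 comparisons share the same 5 wild-type libraries.

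FNE and RBP9 are RNA-binding proteins of the ELAV family, which in neurons bind U-rich stretches of transcripts and act on their splicing, polyadenylation and stability. Among the members were enzymes that detoxify foreign compounds (cytochromes P450 and glutathione transferases), peptides and proteins of the humoral immune response, cuticle proteins, odorant-binding proteins and non-coding RNAs. Cytochromes P450 oxidise lipophilic compounds, glutathione transferases couple them to glutathione, and the Toll pathway of the fly drives secreted immune peptides such as the Bomanins.

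Total counts were between 10289950 and 25325636 per library. In fne the mutations left reads at 83.3 to 95.7 CPM in ΔfneΔrbp9 and 76.4 to 97.3 CPM in Δfne, against 207 to 230.2 CPM in Δrbp9 and 176 to 211 CPM in wild type. Rbp9 was at 16.5 to 19.9 CPM in ΔfneΔrbp9 and 17.1 to 20.9 CPM in Δrbp9, against 552 to 619 CPM in Δfne and 427 to 504 CPM in wild type, so all libraries matched their labels. Lists of neuronal, glial and photoreceptor markers were present in every library, and none of their genes was a member. A list of 38 gut digestive enzymes was high in 4 libraries. Its sum was 432 CPM in ΔfneΔrbp9 replicate 5, 721 CPM in Δfne replicate 5, and 311 and 355 CPM in Δrbp9 replicates 1 and 3, against 17.5 to 44.5 CPM in the other 16 libraries, with the trypsin genes deltaTry and gammaTry at 0 throughout. Without these 4 libraries 119 genes met the rule, 108 of them among the 116 members. The members that then left were w, Tsp42Eq, lncRNA:CR45911, CG6638, CG41378, Fdh, CG11241 and CG2604. In these bulk samples, more cells of a type and more RNA per cell cannot be told apart.

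Most members were higher by a modest factor, and a few by a very large one. The median fold over wild type was 2.04 in ΔfneΔrbp9, 2.03 in Δfne and 2.06 in Δrbp9. With wild-type means under a floor of 3 counts per library raised to that floor, the smallest of the 3 folds was between 1.4 and 1.6 for 49 members, from 1.6 to 2 for 23, from 2 to 4 for 25, from 4 to 10 for 15 and at least 10 for 4. On the log2 scale of the fit across all genes, the median member was at 1.02 in ΔfneΔrbp9, 0.9999 in Δfne and 1.003 in Δrbp9, where the median of all 10560 tested genes was 0.00 in ΔfneΔrbp9, 0.01 in Δfne and 0.00 in Δrbp9. A gene was called by edgeR's quasi-likelihood F-test where the adjusted p was under 0.01 and the log2 fold change was beyond 0.5 in either direction. In ΔfneΔrbp9 9.53% of tested genes were called (4.65% higher, 4.88% lower), in Δfne 8.04% (4.14% higher, 3.90% lower) and in Δrbp9 8.05% (3.45% higher, 4.60% lower). The calls that were higher took in 114 members in ΔfneΔrbp9, 111 in Δfne and 106 in Δrbp9, which the rule had largely fixed. All 15 mutant libraries lay above all 5 wild-type libraries in 2.80% of the genes with a mean count of at least 20, and 276 genes met that condition before the folds were applied.

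The separation was narrow for many members. The lowest mutant library was a median of 1.21 times the highest wild-type library, at least 1.4 times in 33 members and under 1.1 times in 25. AstCC, the gene of an allatostatin-like peptide, is an example of the narrow end, with 3.62, 3.95, 2.99, 2.53 and 2.62 CPM in ΔfneΔrbp9, 5.27, 3.63, 2.96, 3.12 and 2.97 CPM in Δfne and 3.21, 3.22, 3.03, 2.83 and 3.28 CPM in Δrbp9, against 2.52, 1.28, 0.942, 2.401 and 2.52 CPM in wild type. At the fold threshold, CG2604, conv and PolQ were just inside with smallest folds of 1.402, 1.406 and 1.408, and Reck, CtsF and Ude were just outside with 1.390, 1.384 and 1.378. At the bound on the double mutant, w, CG12017 and CG11241 were nearest inside, at 1.356, 1.330 and 1.249 times the higher single mutant mean. CG13073, Cyp4e3 and BomS2 were just outside it, at 1.424, 1.445 and 1.465 times. With library sizes scaled by the trimmed mean of M-values (TMM), 107 genes met the rule.

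**Figure D1:**
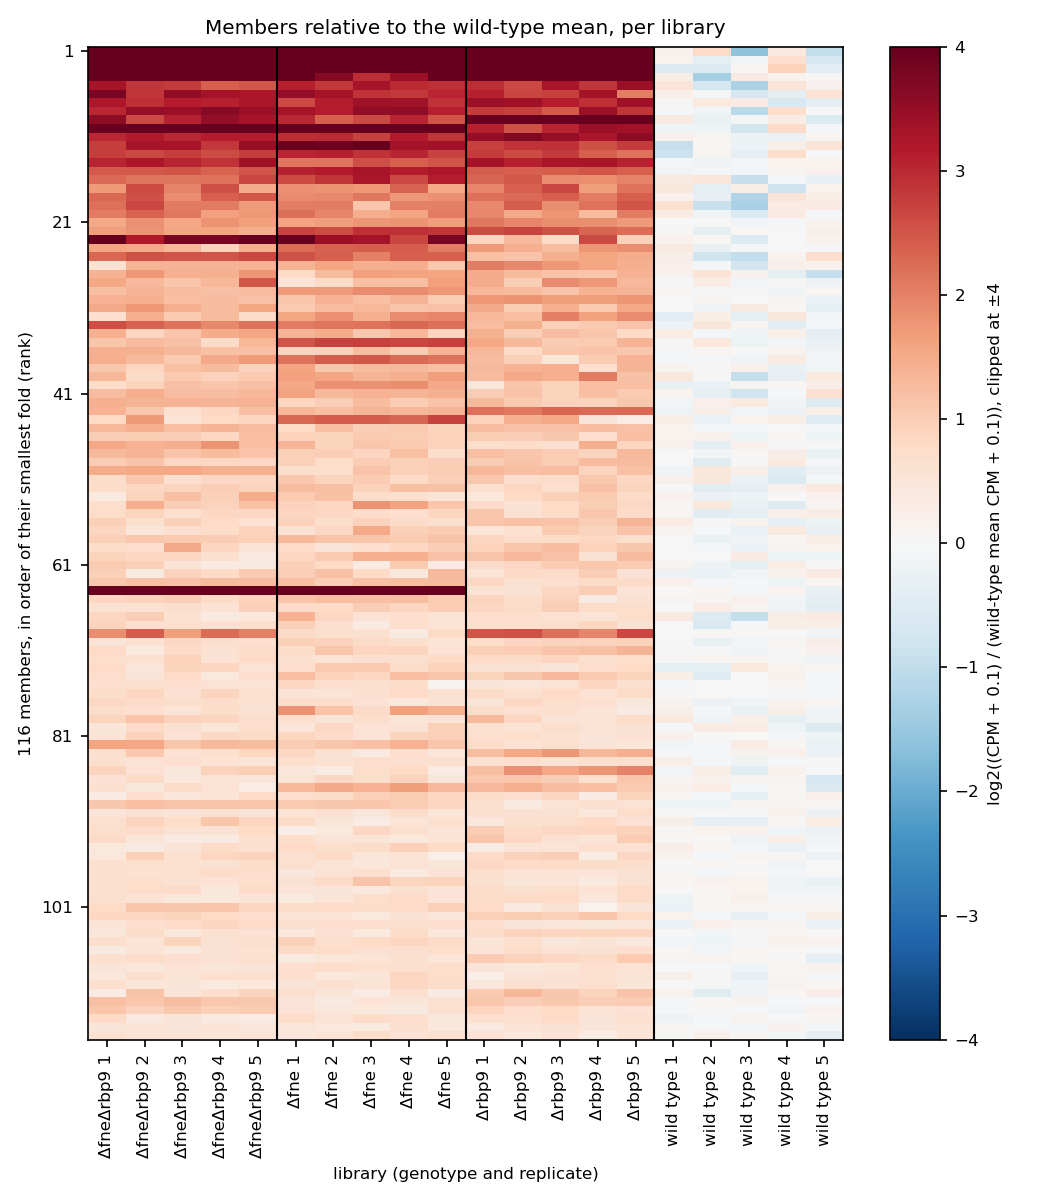
Level of each of the 116 members (rows, ordered by their smallest fold over wild type) in each of the 20 libraries (columns, by genotype and replicate), as log2 of CPM plus 0.1 over the wild-type mean plus 0.1, clipped at ±4. All 15 mutant columns are shifted above wild type in every row, as the rule required, with a median fold of 2.04 in ΔfneΔrbp9, 2.03 in Δfne and 2.06 in Δrbp9, and the rows near the top are the darkest.

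Wild-type levels of the members were mostly low. Their median was 6.82 CPM in wild type, where that of all 9856 genes was 28.8 CPM. The rule itself bears on this level, since it placed wild type below every mutant library. Its minimum count was a mean over all libraries, so genes with few wild-type counts could enter through their mutant counts. The comparison with all genes therefore describes the members and does not show a property apart from the rule. A total of 21 members had a wild-type mean under 1 CPM and 15 had one of at least 50 CPM. Added over the 116 members, CPM came to 7746 to 8150 in the ΔfneΔrbp9 libraries, 7851 to 8159 in Δfne and 6748 to 6899.7 in Δrbp9, against 3468 to 3873 in wild type. Replicates of the members scattered more than those of other genes, with a median coefficient of variation of 10.6% in ΔfneΔrbp9, 10.9% in Δfne, 10.6% in Δrbp9 and 16.1% in wild type, beside 6.43%, 7.51%, 6.30% and 8.97% over all genes in the same genotypes. This comparison was not matched for level, and counting error weighs more at the low levels of the members. As a median over the 116 members, which the rule chose by these same libraries, the ratio to the wild-type mean was close between libraries of a genotype. It was 1.92 to 2.08 in ΔfneΔrbp9, 1.95 to 2.10 in Δfne and 1.99 to 2.08 in Δrbp9, against 0.948 to 1.05 in wild type.

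In 4 members the smallest fold over wild type, with that floor, was at least 10, and the largest of them was w. The white protein is an ABC transporter that carries eye pigment precursors (FBgn0003996, chromosome arm X, 2790599 to 2796466, minus strand, BDGP6). Its 5 libraries gave 352, 414, 303, 294 and 296 CPM in ΔfneΔrbp9, 245, 231, 242, 254 and 252 CPM in Δfne and 133, 168, 148, 103 and 97.2 CPM in Δrbp9, against 0.247, 0.427, 0, 0.308 and 0.0573 CPM in wild type. Mean levels were 332 ± 51.8 CPM in ΔfneΔrbp9, 245 ± 9.07 CPM in Δfne and 129.7 ± 30.004 CPM in Δrbp9, against 0.208 ± 0.177 CPM in wild type (SD, n = 5 each), and the groups were ordered ΔfneΔrbp9, Δfne, Δrbp9 and wild type with no overlap between neighbours. Wild type here carries the w1118 allele. Of the other 20 genes on the eye pigment list, 1 was called higher and 2 lower in ΔfneΔrbp9, 0 higher and 1 lower in Δfne, and 0 higher and 2 lower in Δrbp9. In the last 2 comparisons DESeq2 also called 0 higher, and 2 genes each were higher at an unadjusted p under 0.05 by the edgeR test.

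On the X chromosome sordd2 was the next largest, and its immediate neighbour CR44383, annotated as a pseudogene, was a member as well. Values of sordd2 (FBgn0052581, chromosome arm X, 15796908 to 15799162, minus strand) were 41.04, 38.9, 40.4, 43.9 and 44.03 CPM in ΔfneΔrbp9, 49.2, 49.3, 49.4, 51.96 and 46.5 CPM in Δfne and 16.6, 13.4, 15.2, 14.2 and 13.5 CPM in Δrbp9, against 0.0495, 0.0475, 0.126, 0.308 and 0.0573 CPM in wild type. The Δrbp9 libraries were all below those of ΔfneΔrbp9 and Δfne, and still at least 87.2 times wild type with the wild-type mean raised to the floor of 3 counts per library. The wild-type mean rested on few reads, and without wild-type replicate 4 it was 0.0700 CPM. CR44383 (FBgn0265533, chromosome arm X, 15796477 to 15796897, plus strand) gave 3.104, 4.21, 4.201, 5.05 and 4.32 CPM in ΔfneΔrbp9, 5.04, 3.1001, 3.56, 3.32 and 4.45 CPM in Δfne and 1.31, 0.873, 1.28, 1.74 and 1.64 CPM in Δrbp9, against 0.0495, 0.0475, 0, 0.185 and 0.0573 CPM in wild type. Its 5 wild-type libraries held at most 3 counts each. Against a floor of 3 counts per library it was at least 24.99-fold higher in ΔfneΔrbp9, at least 23.3-fold higher in Δfne and at least 8.19-fold higher in Δrbp9. Without wild-type replicate 4 its wild-type mean was 0.0386 CPM, in place of 0.0678 CPM. Reads of a pseudogene can be shared with the gene it resembles, and the treatment of reads that fit several places was not stated.

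The other genes of these 4 were Cyp6a17 and CG18180. Cyp6a17 is a cytochrome P450 that in flies bears on temperature preference. Cyp6a17 (FBgn0015714, chromosome arm 2R, 14873953 to 14875739, plus strand) had 32.99, 34.9, 36.5, 32.3 and 34.5 CPM in ΔfneΔrbp9, 54.6, 57.03, 63.7, 62.9 and 59.97 CPM in Δfne and 34.4, 31.96, 31.2, 25.4 and 32.9 CPM in Δrbp9, against 0.396, 0.237, 0.314, 0.616 and 0.172 CPM in wild type. The Δfne libraries were the highest, and those of ΔfneΔrbp9 and Δrbp9 overlapped. CG18180 on arm 3L stood at 8.56, 12.2, 10.5, 10.5 and 9.09 CPM in ΔfneΔrbp9, 6.304, 4.504, 2.82, 3.91 and 59.4 CPM in Δfne and 23.4, 12.1, 8.4001, 7.77 and 10.3 CPM in Δrbp9, against 0.346, 0.0475, 0.377, 0.308 and 0.287 CPM in wild type. Its highest values, in Δfne replicate 5 and Δrbp9 replicate 1, fell in libraries where the gut enzyme sum was also high, and the part of gut tissue in this result was not tested. Without the 4 libraries with high gut enzymes CG18180 averaged 10.4 CPM in ΔfneΔrbp9, 4.38 CPM in Δfne and 10.04 CPM in Δrbp9, against 0.273 CPM in wild type, so that the Δfne fold was 16.1 where it was 56.3 with all libraries.

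**Figure D2:**
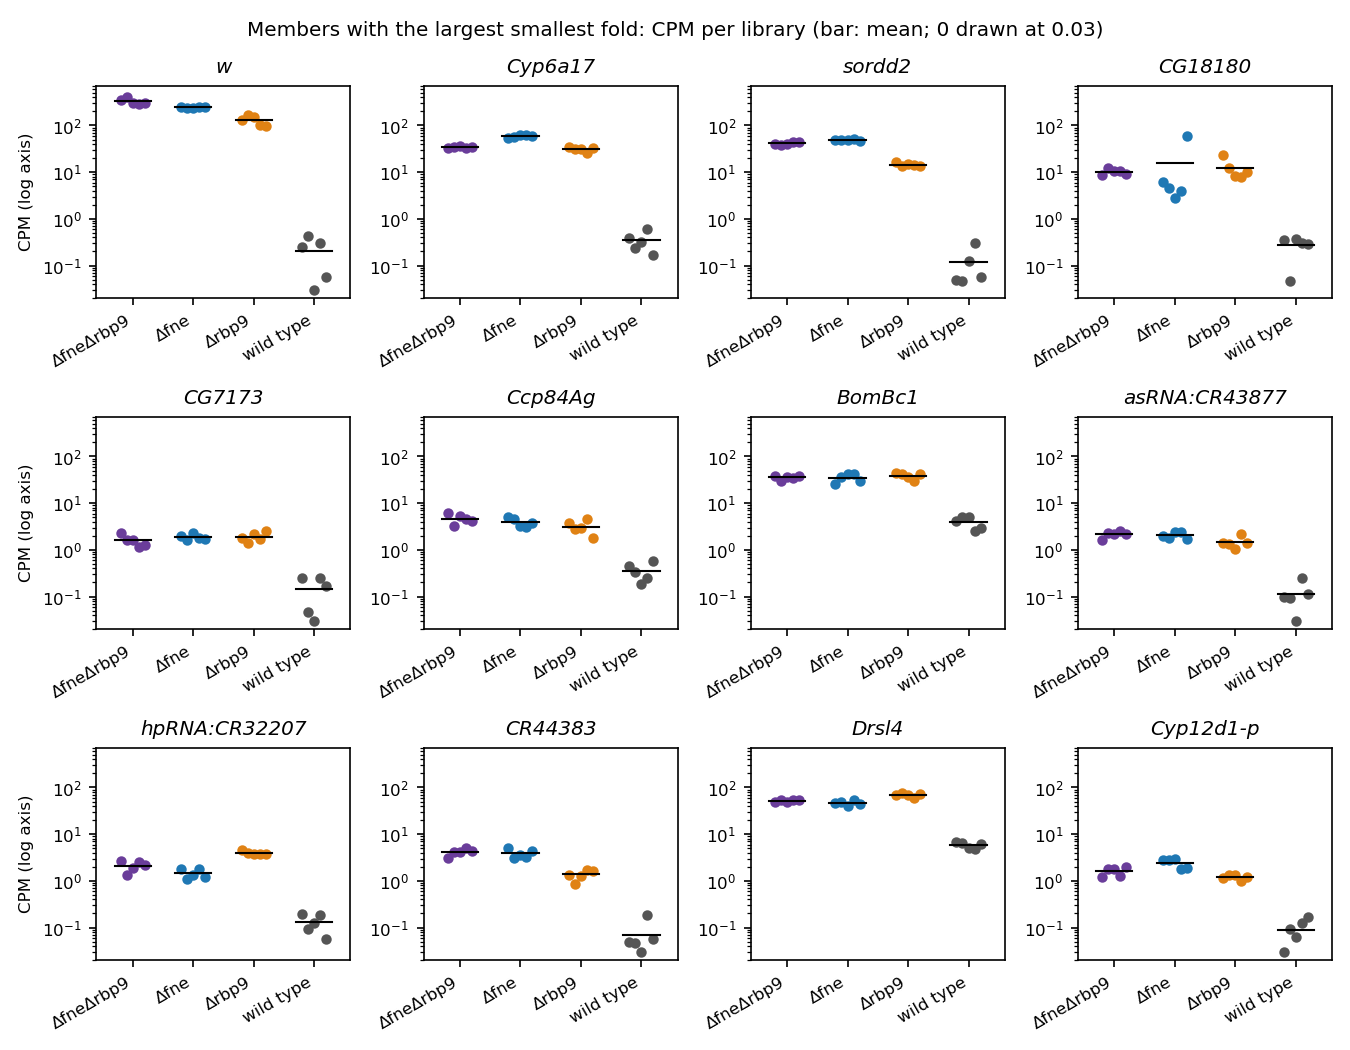
CPM per library (points, log axis, 0 drawn at 0.03) and group mean (bar) for the 12 members with the largest smallest fold, in ΔfneΔrbp9, Δfne, Δrbp9 and wild type, 5 libraries each. Wild type is at or below 6.87 CPM in every panel, and CG18180 shows the single Δfne library at 59.4 CPM.

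Of 73 cytochrome P450 genes tested, 5 were members, beside 116 of all 10560 tested genes. Besides Cyp6a17 these were Cyp12d1-p, Cyp6d2, Cyp12a5 and Cyp6a2. Cyp12d1-p and Cyp6a2 are known from fly strains that resist insecticides. Cyp12d1-p (FBgn0050489, chromosome arm 2R, 11117225 to 11121884, minus strand) read 1.21, 1.76, 1.78, 1.26 and 2.03 CPM in ΔfneΔrbp9, 2.82, 2.75, 2.91, 1.82 and 1.84 CPM in Δfne and 1.18, 1.31, 1.34, 1.02 and 1.22 CPM in Δrbp9, against 0, 0.0949, 0.0628, 0.123 and 0.172 CPM in wild type. Its wild-type libraries held at most 3 counts each. Against the floor of 3 counts per library it was at least 9.62-fold higher in ΔfneΔrbp9, at least 14.5-fold higher in Δfne and at least 7.25-fold higher in Δrbp9. A near-identical copy, Cyp12d1-d, lies beside it, so the division of reads between them is uncertain. Cyp12d1-d averaged 0 CPM in ΔfneΔrbp9, 4.38 CPM in Δfne and 0.0262 CPM in Δrbp9, against 0 CPM in wild type.

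Cyp6a2 moved less but at a higher level, at 46.6, 50.1, 49.1, 48.6 and 45.9 CPM in ΔfneΔrbp9, 58.1, 52.1, 51.8, 49.5 and 52.2 CPM in Δfne and 43.6, 39.98, 40.02, 42.4 and 38.95 CPM in Δrbp9, against 23.7, 19.7, 21.7, 25.4 and 28.5 CPM in wild type. Its wild-type range and mutant ranges were well apart. Cyp6d2 averaged 2.57 ± 0.476 CPM in ΔfneΔrbp9, 4.03 ± 0.839 CPM in Δfne and 2.29 ± 0.471 CPM in Δrbp9, against 0.444 ± 0.191 CPM in wild type, and Cyp12a5 13.1 ± 1.07 CPM in ΔfneΔrbp9, 11.4 ± 1.78 CPM in Δfne and 11.3 ± 1.53 CPM in Δrbp9, against 5.24 ± 0.452 CPM in wild type. Of the other 68 tested P450 genes, 8 were called higher and 9 lower in ΔfneΔrbp9, 8 higher and 13 lower in Δfne, and 3 higher and 10 lower in Δrbp9. Over all tested genes 4.65% were called higher and 4.88% lower in ΔfneΔrbp9, 4.14% and 3.90% in Δfne, and 3.45% and 4.60% in Δrbp9. These shares are the background for the calls in each family and list given here, and no family was tested against them. Over all 73 the median log2 fold change was -0.05 in ΔfneΔrbp9, -0.14 in Δfne and -0.11 in Δrbp9. Cyp6a8, Cyp9b2 and Cyp6a23 fell in all 3 mutants. Cyp6a23 averaged 49.4 CPM in ΔfneΔrbp9, 15.3 CPM in Δfne and 43.4 CPM in Δrbp9, against 86.9 CPM in wild type, and lies in the same gene cluster as Cyp6a17. Cyp4e3 and Cyp309a1 rose in all 3 mutants but were kept out by the bound on the double mutant, Cyp4e3 with 257 CPM in ΔfneΔrbp9, 178 CPM in Δfne and 151 CPM in Δrbp9, against 84.3 CPM in wild type.

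Among the glutathione transferases GstE1 and GstE9, of the Epsilon class, were members. GstE1 was at 41.4, 40.3, 70.7, 45.2 and 36.9 CPM in ΔfneΔrbp9, 41.8, 34.9, 39.7, 44.2 and 49.03 CPM in Δfne and 47.2, 53.5, 57.8, 46.6 and 52.2 CPM in Δrbp9, against 25.03, 23.5, 21.04, 26.7 and 26.9 CPM in wild type, with ΔfneΔrbp9 replicate 3 above the rest. GstE9 averaged 92.9 ± 3.74 CPM in ΔfneΔrbp9, 109 ± 14.8 CPM in Δfne and 85.9 ± 5.41 CPM in Δrbp9, against 59.3 ± 7.89 CPM in wild type. Of the other 29 tested genes, 1 was called higher and 5 lower in ΔfneΔrbp9, 0 higher and 7 lower in Δfne, and 1 higher and 7 lower in Δrbp9. In Δfne DESeq2 also called 0 higher, with 3 higher at an unadjusted p under 0.05 by the edgeR test. GstD3, GstD5, GstD9 and GstE3 fell in all 3 mutants, GstE3 to 34.9 CPM in ΔfneΔrbp9, 38.5 CPM in Δfne and 33.5 CPM in Δrbp9, against 65.5 CPM in wild type. No member was among the 19 tested UDP-glycosyltransferases, of which 1 was called higher and 2 lower in ΔfneΔrbp9, 3 higher and 4 lower in Δfne, and 0 higher and 3 lower in Δrbp9 (0 higher by DESeq2 and at an unadjusted edgeR p under 0.05 as well). Other members with annotated metabolic roles were Adh and Fdh, alcohol and formaldehyde dehydrogenases, Acat1, an acetyl-CoA acetyltransferase, Rdh1, a retinol dehydrogenase, Fa2h, a fatty acid hydroxylase, and Agpat3, an acyltransferase of phospholipid synthesis.

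Adh stood at 33.3, 34.7, 31.1, 30.8 and 35.9 CPM in ΔfneΔrbp9, 24.6, 27.3, 35.9, 31.98 and 29.1 CPM in Δfne and 41.6, 34.8, 36.3, 36.1 and 38.8 CPM in Δrbp9, against 21.3, 22.5, 22.9, 18.04 and 17.2 CPM in wild type. This is a modest difference, and the gene overlaps osp on the opposite strand. Acat1 had 82.5 ± 1.78 CPM in ΔfneΔrbp9, 66.2 ± 7.295 CPM in Δfne and 66.3 ± 6.805 CPM in Δrbp9, against 31.7 ± 7.59 CPM in wild type. Rdh1 averaged 9.86 CPM in ΔfneΔrbp9, 9.56 CPM in Δfne and 9.82 CPM in Δrbp9, against 4.84 CPM in wild type, Fa2h 3.18 CPM in ΔfneΔrbp9, 2.81 CPM in Δfne and 2.75 CPM in Δrbp9, against 1.52 CPM in wild type, and Agpat3 134 CPM in ΔfneΔrbp9, 137 CPM in Δfne and 140.3 CPM in Δrbp9, against 91.2 CPM in wild type. Their smallest folds lay between 1.46 and 2.09.

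**Figure D3:**
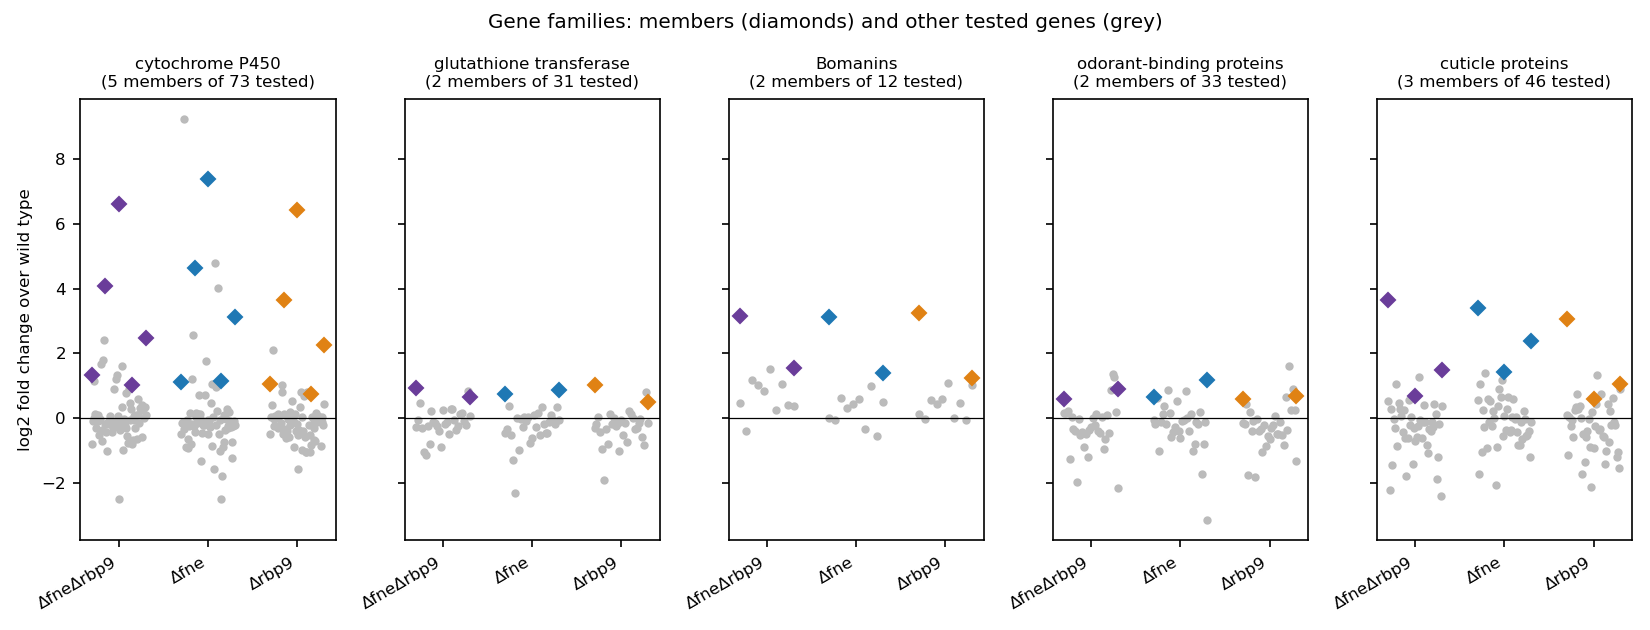
Log2 fold change over wild type of the tested genes of 5 families in ΔfneΔrbp9, Δfne and Δrbp9, with members as diamonds and the other tested genes in grey, 1 point per gene. The members lie above 0 by the rule, and the calls among the other genes in ΔfneΔrbp9 were 8 higher and 9 lower for P450 genes, 1 higher and 5 lower for glutathione transferases, 5 higher and 0 lower for Bomanins, 2 higher and 8 lower for odorant-binding proteins and 2 higher and 14 lower for cuticle genes.

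Among the immune members, BomBc1 and Drsl4, both genes of small secreted peptides, had the largest smallest folds. Drsl4 encodes a peptide related to the antifungal Drosomycin, BomBc1 and BomS1 are Bomanins, Tep4 is a thioester-containing protein of the complement-like family, grass is a serine protease upstream of Toll, and PPO2 is a prophenoloxidase of crystal cells that acts in melanization. Drsl4 (FBgn0052282, chromosome arm 3L, 3315620 to 3315942, plus strand) read 48.2, 53.6, 48.4, 52.7 and 53.2 CPM in ΔfneΔrbp9, 46.5, 47.8, 39.9, 54.5 and 43.5 CPM in Δfne and 68.3, 77.7, 68.3, 58.1 and 71.03 CPM in Δrbp9, against 6.87, 6.46, 5.09, 4.92 and 6.25 CPM in wild type. The Δrbp9 libraries were the highest. BomBc1 was at 38.4, 30.4, 35.6, 34.6 and 38.9 CPM in ΔfneΔrbp9, 25.2, 35.6, 42.1, 41.7 and 29.9 CPM in Δfne and 44.5, 41.5, 35.6, 30.5 and 42.4 CPM in Δrbp9, against 4.06, 5.17, 5.02, 2.52 and 2.98 CPM in wild type, with the 3 mutants overlapping each other and wild type at a mean of 3.95 CPM.

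BomS1 was more abundant and more variable, with 216, 273, 218, 217 and 279.9 CPM in ΔfneΔrbp9, 142, 197, 257, 251 and 242 CPM in Δfne and 227, 195, 179, 177 and 212 CPM in Δrbp9, against 92.2, 117, 91.3, 63.8 and 43.2 CPM in wild type. Its wild-type libraries ranged from 43.2 to 117 CPM. Of the other 10 Bomanins, 5 were called higher in ΔfneΔrbp9, 2 higher and 1 lower in Δfne, and 4 higher in Δrbp9, with 0 called lower in ΔfneΔrbp9 and Δrbp9 by edgeR or DESeq2, and 0 lower at an unadjusted edgeR p under 0.05. BomS2 rose in all 3 mutants and was kept out by the bound, at 606 CPM in ΔfneΔrbp9, 414 CPM in Δfne and 402 CPM in Δrbp9, against 265 CPM in wild type. Of the other 15 antimicrobial peptide genes tested, edgeR called 0 in ΔfneΔrbp9, 0 in Δfne and 1 higher in Δrbp9. At an unadjusted p under 0.05, 3 were higher in ΔfneΔrbp9, 2 higher and 6 lower in Δfne, and 5 higher in Δrbp9. DESeq2 called 1 higher in ΔfneΔrbp9, 2 lower in Δfne and 3 higher in Δrbp9. Over all 16 tested genes of that list the median log2 fold change was 0.07 in ΔfneΔrbp9, -1.56 in Δfne and 0.99 in Δrbp9.

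Tep4 was an abundant immune member whose libraries lay far from wild type (FBgn0041180, chromosome arm 2L, 19548507 to 19556451, plus strand). It had 186, 185, 194, 175 and 194 CPM in ΔfneΔrbp9, 286, 308, 334, 299.8 and 318 CPM in Δfne and 183, 176, 183, 192 and 177 CPM in Δrbp9, against 30.6, 32.1, 31.4, 37.2 and 37.9 CPM in wild type. Δfne stood above the others, and ΔfneΔrbp9 and Δrbp9 overlapped. Of the other 3 thioester-containing genes edgeR and DESeq2 called 0 in each mutant, and at an unadjusted edgeR p under 0.05 there were 2 higher in ΔfneΔrbp9, 1 lower in Δfne and 1 higher in Δrbp9. PPO2 showed 14.4, 11.5, 14.2, 12.7 and 10.9 CPM in ΔfneΔrbp9, 13.9, 11.9, 13.9, 12.7 and 11.5 CPM in Δfne and 15.98, 16.6, 16.3, 14.6 and 18.9 CPM in Δrbp9, against 9.1995, 7.501, 8.04, 5.66 and 6.304 CPM in wild type, and grass 61.05 ± 5.49 CPM in ΔfneΔrbp9, 66.4 ± 4.48 CPM in Δfne and 54.004 ± 3.68 CPM in Δrbp9, against 37.8 ± 4.36 CPM in wild type. The hemocyte marker list, to which PPO2 was not assigned, gave sums of 630 to 667 CPM in ΔfneΔrbp9, 549 to 611 CPM in Δfne and 658 to 708 CPM in Δrbp9, against 613 to 847 CPM in wild type. Of its 7 tested genes edgeR and DESeq2 each called 0 higher in any mutant, and 3 lower in ΔfneΔrbp9, 4 in Δfne and 1 in Δrbp9. At an unadjusted edgeR p under 0.05, 2 were higher and 4 lower in ΔfneΔrbp9, 0 higher and 6 lower in Δfne, and 1 higher and 4 lower in Δrbp9. No member was among the 10 tested peptidoglycan recognition proteins, with 1 called higher in ΔfneΔrbp9 and 1 lower in Δfne, or among the 4 tested Turandot genes, with 1 lower in ΔfneΔrbp9 and 1 higher in Δfne. Heat shock genes held no member either, but of 16 tested edgeR called 6 higher in ΔfneΔrbp9, 0 in Δfne and 3 in Δrbp9, and 0 lower in any of them. DESeq2 called 6 higher in ΔfneΔrbp9, 1 in Δfne and 8 in Δrbp9, with 0 lower. At an unadjusted edgeR p under 0.05, 12 were higher in ΔfneΔrbp9, 3 higher and 3 lower in Δfne, and 14 higher in Δrbp9.

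Of 46 tested cuticle genes 3 were members (beside 116 of all 10560 tested genes), namely Ccp84Ag, Cpr51A and Cpr49Ab. Ccp84Ag had 6.21, 3.25, 5.28, 4.47 and 4.19 CPM in ΔfneΔrbp9, 5.12, 4.504, 3.26, 3.12 and 3.68 CPM in Δfne and 3.73, 2.84, 2.92, 4.502 and 1.797 CPM in Δrbp9, against 0.445, 0.332, 0.188, 0.246 and 0.573 CPM in wild type, with the mutants overlapping. Cpr51A was at 3.79, 3.41, 2.801, 3.98 and 4.51 CPM in ΔfneΔrbp9, 6.23, 7.43, 7.85, 6.63 and 6.24 CPM in Δfne and 3.21, 2.62, 1.87, 2.76 and 3.65 CPM in Δrbp9, against 1.24, 1.28, 1.19, 1.66 and 1.203 CPM in wild type, where the Δfne libraries formed a separate upper group. Cpr49Ab averaged 2.29 ± 0.137 CPM in ΔfneΔrbp9, 3.87 ± 1.06 CPM in Δfne and 2.18 ± 0.216 CPM in Δrbp9, against 1.41 ± 0.247 CPM in wild type. Among the other 43 tested cuticle genes, 2 were called higher and 14 lower in ΔfneΔrbp9, 5 higher and 8 lower in Δfne, and 5 higher and 13 lower in Δrbp9. Ccp84Aa, of the same cluster as Ccp84Ag, fell in all 3 mutants, to 2.26 CPM in ΔfneΔrbp9, 3.22 CPM in Δfne and 4.89 CPM in Δrbp9, against 10.6 CPM in wild type. Cpr49Af, Cpr49Ag and TwdlG also fell in all 3.

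Further members tied to cuticle or surface were y, which is needed for dark melanin pigment, nyo, a zona pellucida domain protein of the apical surface, and Osi9 and Osi19 of the Osiris family. The level of y was 2.47, 1.97, 1.78, 2.53 and 2.62 CPM in ΔfneΔrbp9, 1.85, 1.64, 2.17, 2.33 and 1.64 CPM in Δfne and 3.08, 4.7997, 3.97, 4.65 and 5.34 CPM in Δrbp9, against 1.19, 1.57, 0.942, 1.48 and 1.26 CPM in wild type. Osi19 averaged 2.13 ± 0.776 CPM in ΔfneΔrbp9, 1.76 ± 0.425 CPM in Δfne and 2.25 ± 0.635 CPM in Δrbp9, against 0.405 ± 0.166 CPM in wild type, Osi9 15.2 ± 2.08 CPM in ΔfneΔrbp9, 12.8 ± 1.85 CPM in Δfne and 15.1 ± 2.65 CPM in Δrbp9, against 8.76 ± 0.886 CPM in wild type, and nyo 1.17 ± 0.2905 CPM in ΔfneΔrbp9, 1.94 ± 0.309 CPM in Δfne and 1.799 ± 0.445 CPM in Δrbp9, against 0.507 ± 0.167 CPM in wild type. The wild-type levels of Osi19 and nyo were thus low and their replicates scattered widely. Larval fat body markers, which fade in the days after eclosion, gave sums of 2022 to 2396 CPM in ΔfneΔrbp9, 240 to 345 CPM in Δfne and 994 to 1626 CPM in Δrbp9, against 584 to 1240 CPM in wild type, so that ΔfneΔrbp9 lay above the other groups and Δfne below them. The yolk protein genes Yp1, Yp2 and Yp3, which are made in females, summed to 4691 to 7930 CPM in ΔfneΔrbp9, 4045 to 8275 CPM in Δfne and 8960 to 12882 CPM in Δrbp9, against 2028 to 18482 CPM in wild type, where the wild-type range took in those of all 3 mutants and Δrbp9 lay above ΔfneΔrbp9 and Δfne. A further sex reporter, the sum of roX1 and roX2, spread less. It was 1029 to 1118 CPM in ΔfneΔrbp9, 1123 to 1236 CPM in Δfne and 989 to 1045 CPM in Δrbp9, against 1063 to 1257 CPM in wild type.

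The most abundant member by CPM was Obp44a, an odorant-binding protein gene (FBgn0033268, chromosome arm 2R, 8134170 to 8135315, minus strand). It had 1362, 1312, 1406, 1304 and 1271 CPM in ΔfneΔrbp9, 1412, 1340.01, 1422, 1416 and 1424 CPM in Δfne and 1332, 1404, 1318, 1388 and 1387 CPM in Δrbp9, against 1045, 838, 772, 843 and 913 CPM in wild type. The mutant groups overlapped one another, and wild type was lower by a smallest fold of 1.51. Per kilobase of exon Obp44a reached 1270.0 CPM over the mutant libraries and 820.1 CPM in wild type. On the same scale lncRNA:CR40469 reached 2514 CPM over the mutant libraries and 124 CPM in wild type. That mutant value pools unlike groups. Unscaled by length, lncRNA:CR40469 was at 748 to 881 CPM in ΔfneΔrbp9, 698 to 786 CPM in Δfne and 38.5 to 52.4 CPM in Δrbp9. Obp84a was the other family member with 25.9 ± 1.33 CPM in ΔfneΔrbp9, 31.6 ± 1.78 CPM in Δfne and 22.9 ± 3.56 CPM in Δrbp9, against 13.9 ± 2.13 CPM in wild type. Of the other 31 tested odorant-binding protein genes, 2 were called higher and 8 lower in ΔfneΔrbp9, 2 higher and 7 lower in Δfne, and 3 higher and 10 lower in Δrbp9. Obp99d fell furthest of the 4 that fell in all mutants, to 6.12 CPM in ΔfneΔrbp9, 3.197 CPM in Δfne and 11.5 CPM in Δrbp9, against 28.03 CPM in wild type, and the others were Obp19c, Obp83ef and Obp83cd.

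Next by level were CG9297, with 978 ± 35.5 CPM in ΔfneΔrbp9, 1099.6 ± 28.5 CPM in Δfne and 999.8 ± 62.8 CPM in Δrbp9, against 686 ± 58.5 CPM in wild type, and Ubi-p5E, a polyubiquitin gene. Ubi-p5E had 478, 552, 472, 475 and 513 CPM in ΔfneΔrbp9, 613, 499.9, 528, 519 and 539 CPM in Δfne and 408, 442, 379, 465 and 419.8 CPM in Δrbp9, against 221, 159, 116, 193 and 323 CPM in wild type, and the wild-type libraries were the most scattered. Ubiquitin repeats are nearly identical between genes, so its reads may be shared with other loci. The remaining abundant members were CG32444, with 309 CPM in ΔfneΔrbp9, 320.1 CPM in Δfne and 351 CPM in Δrbp9, against 214 CPM in wild type, and FBgn0030737, an ID with no symbol in the annotation, with 310.5 CPM in ΔfneΔrbp9, 210.4 CPM in Δfne and 252 CPM in Δrbp9, against 111 CPM in wild type.

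Some members act in signalling or gene regulation. Hr38, an orphan nuclear receptor of the NR4A type that is induced by neuronal activity, was at 24.3, 18.3, 23.6, 21.2 and 23.03 CPM in ΔfneΔrbp9, 23.4, 30.5, 25.2, 26.1 and 20.9 CPM in Δfne and 27.2, 28.5, 31.2, 32.2 and 36.3 CPM in Δrbp9, against 13.2, 13.4, 12.7, 14.5 and 15.8 CPM in wild type, with Δrbp9 highest. The Maf factor gene tj, which acts in gonads and in the optic lobe, was at 12.1, 9.81, 13.2, 12.9 and 10.7 CPM in ΔfneΔrbp9, 11.6, 14.7, 14.5, 11.8 and 13.5 CPM in Δfne and 10.7, 10.7, 10.2, 11.5 and 12.3 CPM in Δrbp9, against 5.29, 5.46, 9.48, 7.76 and 7.22 CPM in wild type. dpr21, an immunoglobulin-domain protein of the family that pairs neurons with their partners, averaged 34.4 ± 1.68 CPM in ΔfneΔrbp9, 49.6 ± 3.38 CPM in Δfne and 35.4 ± 2.28 CPM in Δrbp9, against 14.4 ± 1.08 CPM in wild type. Also members were Jhbp7 (a juvenile hormone binding protein family gene), Egfrap, bou, NijC (a ninjurin), the tetraspanin Tsp42Eq, the matrix proteins loh and tnc, the chitin-organ gene conv, the transporter MFS3, the kinetochore protein Spc105R, the polymerase PolQ, and gfzf. Spc105R averaged 2.49 ± 0.293 CPM in ΔfneΔrbp9, 4.699 ± 0.508 CPM in Δfne and 4.11 ± 0.439 CPM in Δrbp9, against 1.67 ± 0.377 CPM in wild type, and PolQ 12.4 ± 1.76 CPM in ΔfneΔrbp9, 13.7 ± 1.22 CPM in Δfne and 13.95 ± 0.985 CPM in Δrbp9, against 8.81 ± 0.853 CPM in wild type. These genes outside the families were picked for mention after their values had been seen.

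Genes annotated as ncRNA (7 members) or pseudogene (3 members) took a larger share of members than of all genes. For snoRNAs (1 member) the share was 0.862% of members and 0.923% of genes with a mean count of at least 20. Annotated as ncRNA were 6.03% of members and 2.68% of genes with a mean count of at least 20, as pseudogenes 2.59% and 0.365%, and as protein-coding 87.1% and 93.8%. The median exon length was 1369 bases over the 113 annotated members and 2105 bases over 9658 genes. A pair of hairpin RNAs, whose long stems are cut into small interfering RNAs, lay within 11.1 kb on arm 3L. The one at CR32207 had 2.701, 1.33, 1.85, 2.53 and 2.16 CPM in ΔfneΔrbp9, 1.78, 1.11, 1.33, 1.82 and 1.23 CPM in Δfne and 4.65, 3.98, 3.68, 3.85 and 3.81 CPM in Δrbp9, against 0.198, 0.0949, 0.126, 0.185 and 0.0573 CPM in wild type. The other, hpRNA:CR33940, had 14.4, 16.4, 14.3, 12.9 and 18.5 CPM in ΔfneΔrbp9, 7.71, 7.72, 10.4, 9.12 and 10.1 CPM in Δfne and 17.7, 14.999, 16.98, 16.7 and 14.7 CPM in Δrbp9, against 1.58, 1.47, 1.57, 1.85 and 1.83 CPM in wild type, and for both of them Δfne was the lowest of the mutants. A U1 snRNA gene, snRNA:U1:82Eb, averaged 33.4 CPM in ΔfneΔrbp9, 33.4 CPM in Δfne and 33.3 CPM in Δrbp9, against 21.6 CPM in wild type, and reads of U1 copies can be shared. The snoRNA Psi28S-3405a, a guide for pseudouridine in ribosomal RNA, averaged 3.02 CPM in ΔfneΔrbp9, 2.39 CPM in Δfne and 2.81 CPM in Δrbp9, against 1.55 CPM in wild type, but it lies inside Hrb98DE on the same strand. Of the other 111 tested snoRNAs, 4 were called higher and 7 lower in ΔfneΔrbp9, 10 higher and 5 lower in Δfne, and 2 higher and 4 lower in Δrbp9. Of 3 tested histone genes none was a member, edgeR and DESeq2 called 0 in each mutant, and 2 were higher in ΔfneΔrbp9, 2 in Δfne and 1 in Δrbp9 at an unadjusted edgeR p under 0.05.

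Of the 116 members 45 overlapped another gene in the table, 38 on the opposite strand and 9 on the same strand. This share was not determined for all genes, so whether members overlap other genes more often was not tested. Since the strand setting of the counting was not stated, reads of overlapping pairs are uncertain in origin. Examples are asRNA:CR44019 and the end of CtsF on the opposite strand, CG18180 within fry, Cyp6a2 and Epac on the same strand, and NijC and Past1 on the same strand.

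Members were spread over the chromosomes much like other genes. The X chromosome held 14 of them (12.1%, beside 16.1% of all genes with a mean count of at least 20), arm 2L 16 (13.8% beside 17.2%), 2R 26 (22.4% beside 20.2%), 3L 24 (20.7% beside 19.2%) and 3R 33 (28.4% beside 24.2%), and chromosome 4 none (beside 0.913%). Next to one another, with at most 50 kb between neighbours, 31 of the 113 placed members (27.4%) formed 13 runs of 2 to 4 genes. No such share was determined for other genes, so whether members lie closer together than other genes was not tested.

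The 4 members BomBc1, BomS1, GstE1 and GstE9 span 27.1 kb of arm 2R (18382704 to 18409835). Between them lay 15 further tested genes, with 4 called higher and 2 lower in ΔfneΔrbp9, 1 higher and 4 lower in Δfne, and 3 higher and 2 lower in Δrbp9. In the run CG2604, asRNA:CR44019 and CG1113 on arm 3R (5221632 to 5255403), CG1113 averaged 3.999 CPM in ΔfneΔrbp9, 4.79 CPM in Δfne and 3.63 CPM in Δrbp9, against 0.527 CPM in wild type. CtsF, which asRNA:CR44019 overlaps, was just under the fold threshold. CG13062, CG13059, CG13056 and Agpat3 formed a run of 71.7 kb on arm 3L, where 15 other tested genes had median log2 fold changes of -0.10 in ΔfneΔrbp9, -0.12 in Δfne and -0.09 in Δrbp9. On 3L as well, asRNA:CR43877 and CG7173 were 29.7 kb apart from end to end. CG7173 averaged 1.59 CPM in ΔfneΔrbp9, 1.89 CPM in Δfne and 1.91 CPM in Δrbp9, against 0.143 CPM in wild type, and asRNA:CR43877 2.15 CPM in ΔfneΔrbp9, 2.05 CPM in Δfne and 1.47 CPM in Δrbp9, against 0.111 CPM in wild type.

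CG17224 and CG17264 on arm 2L (3016441 to 3021506) were set in a stretch that was otherwise low. The 11 other tested genes within 25 kb had log2 fold changes from -1.26 to -0.70 in ΔfneΔrbp9 and from -1.09 to -0.34 in Δrbp9, against -0.18 to 0.48 in Δfne. By the same test 10 of the 11 were called lower in ΔfneΔrbp9 and 10 in Δrbp9, and 0 in Δfne. In Δfne DESeq2 also called 0 of them, and 1 was higher and 2 were lower at an unadjusted edgeR p under 0.05. CG17264, which overlaps alpha4GT1 of that stretch on the opposite strand, gave 3.16, 3.79, 2.29, 3.401 and 3.598 CPM in ΔfneΔrbp9, 2.37, 2.398, 2.77, 2.09 and 2.25 CPM in Δfne and 2.95, 3.05, 3.38, 2.61 and 3.38 CPM in Δrbp9, against 0.643, 0.427, 0.188, 0.862 and 0.688 CPM in wild type. CG17224 averaged 10.7 ± 1.23 CPM in ΔfneΔrbp9, 13.1 ± 1.27 CPM in Δfne and 11.9 ± 1.68 CPM in Δrbp9, against 7.19 ± 1.01 CPM in wild type. Both genes were thus above wild type in all 3 mutants, including the 2 whose neighbouring genes were lower. The extent of Df(2L)ED206 was not looked up here, and its part in these values was not tested.

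**Figure D4:**
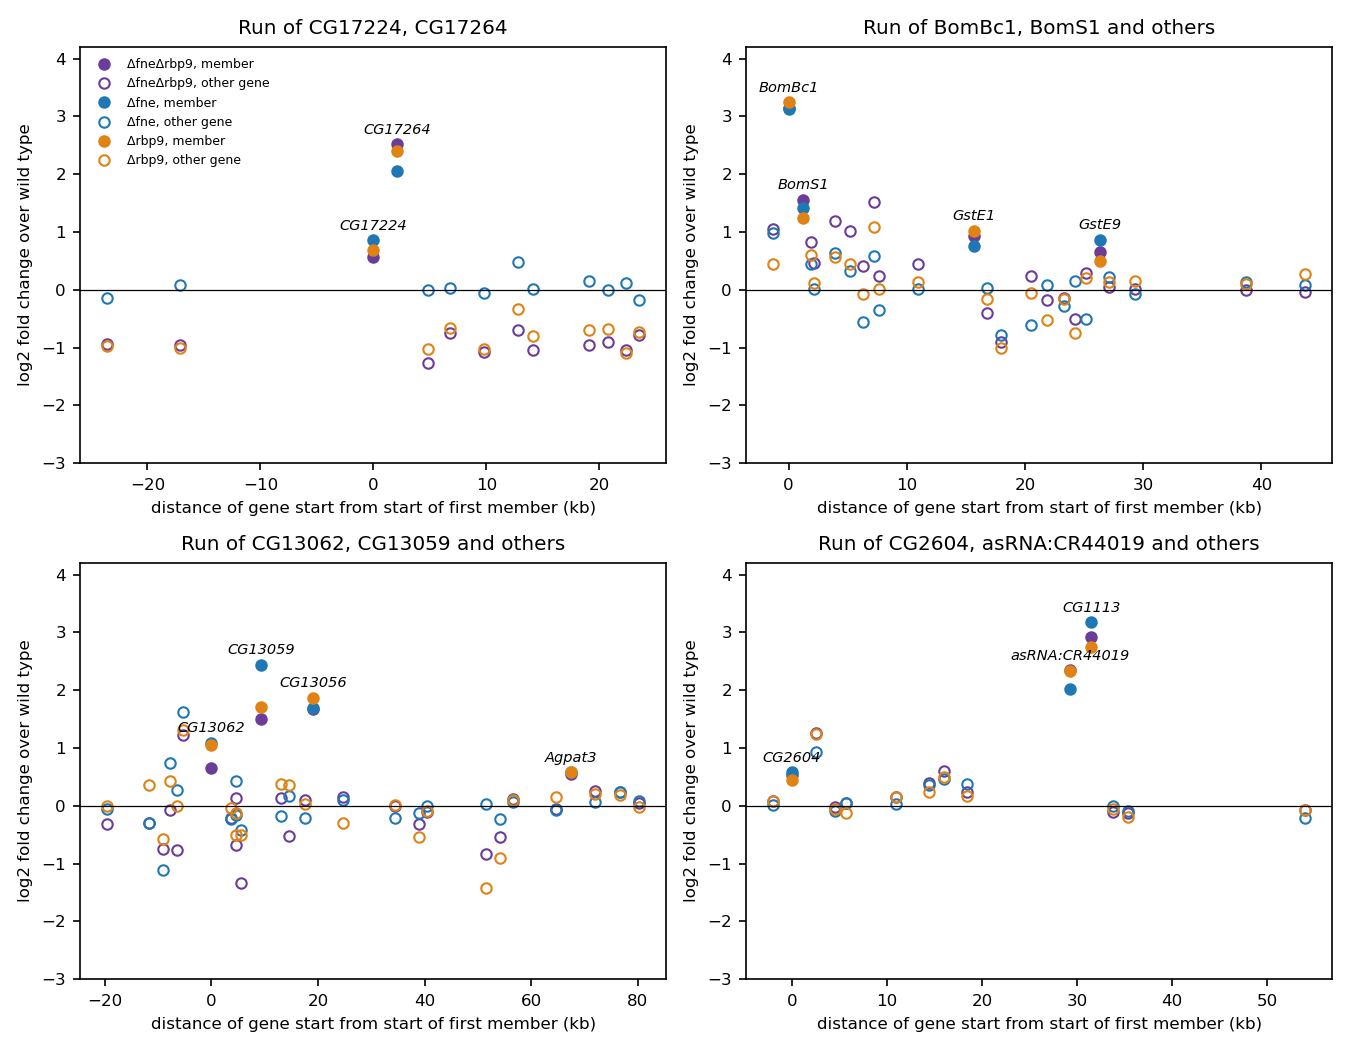
Log2 fold change over wild type (vertical axis) of members (filled) and other tested genes (open) against the distance of each gene start from the first member of the run (kb), for 4 runs, in ΔfneΔrbp9, Δfne and Δrbp9. In the run of CG17224 and CG17264 the 11 neighbours are near 0 in Δfne and mostly between -1.26 and -0.34 in ΔfneΔrbp9 and Δrbp9, while the 2 members are above 0 in all 3.

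The fit across all genes also gave the difference between Δfne and Δrbp9, on which the rule set no condition. The rule did use the levels of these same libraries, and its bound took the higher of their means, so the shares below are not independent of it, and they describe the members without showing that these differ from other genes. Of the 116 members, all of which were tested, 28 were called between Δfne and Δrbp9 (24.1%, beside 8.16% of all 10560 tested genes). Higher in Δfne were 19 (16.4%, beside 4.90%) and lower in Δfne 9 (7.76%, beside 3.27%). The median absolute log2 difference was 0.27 over members and 0.14 over all tested genes. In 26 members all 5 Δfne libraries were above all 5 Δrbp9 libraries (22.4%, beside 10.5% of genes with a mean count of at least 20), and in 14 all were below (12.1%, beside 14.5%).

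The largest difference by far was at lncRNA:CR40469 on the X chromosome (FBgn0058469, chromosome arm X, 122493 to 122706, plus strand). Its levels were 748, 881, 817, 868 and 802 CPM in ΔfneΔrbp9, 737, 786, 745, 770.1 and 698 CPM in Δfne and 39.7, 39.9, 47.2, 52.4 and 38.5 CPM in Δrbp9, against 26.7, 28.7, 25.9, 29.4 and 21.7 CPM in wild type. It met the rule in Δrbp9 by a fold of 1.64 only, while it was 31.1-fold over wild type in ΔfneΔrbp9 and 28.2-fold in Δfne. The log2 fold change of Δfne over Δrbp9 was 4.13 ± 0.09 (SE, adjusted p = 1.6e-17), higher in 5 of 5 Δfne libraries. For w, whose values are given above, it was 0.95 ± 0.14 (SE, adjusted p = 2.6e-05), and for sordd2 1.79 ± 0.08 (SE, adjusted p = 1.7e-12) with CR44383 at 1.53 ± 0.23 (SE, adjusted p = 3.3e-05).

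CG5697 had 73.97, 39.8, 60.6, 60.4 and 76.9 CPM in ΔfneΔrbp9, 94.3, 46.2, 43.5, 27.6 and 59.9 CPM in Δfne and 7.73, 10.5, 7.35, 26.6 and 8.24 CPM in Δrbp9, against 4.75, 4.46, 2.89, 4.31 and 4.699 CPM in wild type. The Δfne libraries spread from 27.6 to 94.3 CPM and Δrbp9 replicate 4 stood at 26.6 CPM, just under the lowest Δfne library. The log2 fold change of Δfne over Δrbp9 was 2.21 ± 0.34 (SE, adjusted p = 4.7e-05). CG18473 was at 13.1, 14.04, 14.1, 13.3 and 17.2 CPM in Δfne, against 4.91, 7.04, 7.64, 3.703 and 3.17 CPM in Δrbp9, with a log2 fold change of 1.47 ± 0.23 (SE, adjusted p = 5.1e-05). CG13793 was at 13.4, 15.3, 15.6, 14.9 and 15.7 CPM in Δfne, against 6.75, 5.67, 4.67, 4.72 and 5.92 CPM in Δrbp9 (1.47 ± 0.12 on the log2 scale). Both of these were at similar means in ΔfneΔrbp9 and Δrbp9, 5.23 CPM in ΔfneΔrbp9 and 5.29 CPM in Δrbp9 for CG18473, and 5.09 CPM in ΔfneΔrbp9 and 5.55 CPM in Δrbp9 for CG13793.

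The called P450 members, Cyp6a17, Cyp12d1-p and Cyp6d2, were higher in Δfne, and neither GstE1 nor GstE9 was called. Of the called immune members Tep4 was higher and Drsl4 lower. Cyp6a17 differed by 0.97 ± 0.08 (SE, adjusted p = 1.4e-08), Cyp12d1-p by 1.01 ± 0.23 (SE, adjusted p = 0.002297), Cyp6d2 by 0.85 ± 0.21 (SE, adjusted p = 0.00356) and Tep4 by 0.79 ± 0.06 (SE, adjusted p = 2.5e-09). For Cyp6d2 the adjusted p rose to between 0.0105 and 0.0125 without Δfne replicate 3, Δfne replicate 5, Δrbp9 replicate 3 or Δrbp9 replicate 5, and to 0.0307 without the 4 libraries high in gut enzymes. Cpr51A (1.31 ± 0.15) and Cpr49Ab (0.86 ± 0.16), both cuticle genes, NijC (1.02 ± 0.19), CG8539 (1.03 ± 0.13), the pseudogene Ir47b (0.77 ± 0.16), CG13059 (0.73 ± 0.15), CG12655 (0.60 ± 0.11) and dpr21 (0.51 ± 0.06) were the remaining calls that were higher in Δfne, with the log2 fold change and its SE in brackets. NijC was not called without the 4 libraries high in gut enzymes (adjusted p = 0.0169). The call of dpr21 rested on the fold threshold, its log2 fold change being 0.47 to 0.49 without Δfne replicate 3, Δfne replicate 4, Δrbp9 replicate 3 or the 4 libraries high in gut enzymes. Under total count scaling, with all libraries, its log2 fold change was 0.486, also short of the threshold.

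The 9 other called members were lower in Δfne than in Δrbp9. CG31606 led with 4.52, 4.09, 4.099, 3.36 and 4.601 CPM in Δfne, against 15.5, 15.8, 12.3, 10.5 and 17.2 CPM in Δrbp9, a log2 fold change of -1.76 ± 0.14 (SE, adjusted p = 1.4e-08). It overlaps CG43394 on the same strand. The hairpin RNA at CR32207 differed by -1.42 ± 0.19 (SE, adjusted p = 1.0e-05) and hpRNA:CR33940 by -0.81 ± 0.10 (SE, adjusted p = 3.8e-06). The pigment gene y differed by -1.14 ± 0.17 (SE, adjusted p = 2.6e-05). CG8665 was at 48.6, 44.2, 49.2, 48.3 and 49.3 CPM in Δfne, against 88.4, 83.9, 96.8, 92.1 and 91.9 CPM in Δrbp9 (-0.89 ± 0.11 on the log2 scale), and CG11345 at 7.79, 6.67, 5.58, 6.95 and 5.88 CPM in Δfne, against 10.3, 12.7, 14.99, 10.96 and 11.997 CPM in Δrbp9 (-0.87 ± 0.12). Smaller differences were called for CG14752 (-0.58 ± 0.14), Drsl4 (-0.54 ± 0.08) and Fdh (-0.51 ± 0.05). For Fdh the libraries were 66.5, 60.1, 67.4, 64.5 and 70.6 CPM in Δfne, against 100.4, 91.8, 98.6, 92.3 and 93.4 CPM in Δrbp9, without overlap. CG14752 was no longer called without Δrbp9 replicate 2 (adjusted p = 0.0110) or without the 4 libraries high in gut enzymes (adjusted p = 0.0351). The log2 fold change of Drsl4 was -0.49 without Δfne replicate 3 or Δrbp9 replicate 2, and that of Fdh lay between -0.50 and -0.47 without Δfne replicate 2 or 4, Δrbp9 replicate 1 or 3, or the 4 libraries high in gut enzymes, which took both genes under the threshold of 0.5.

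**Figure D5:**
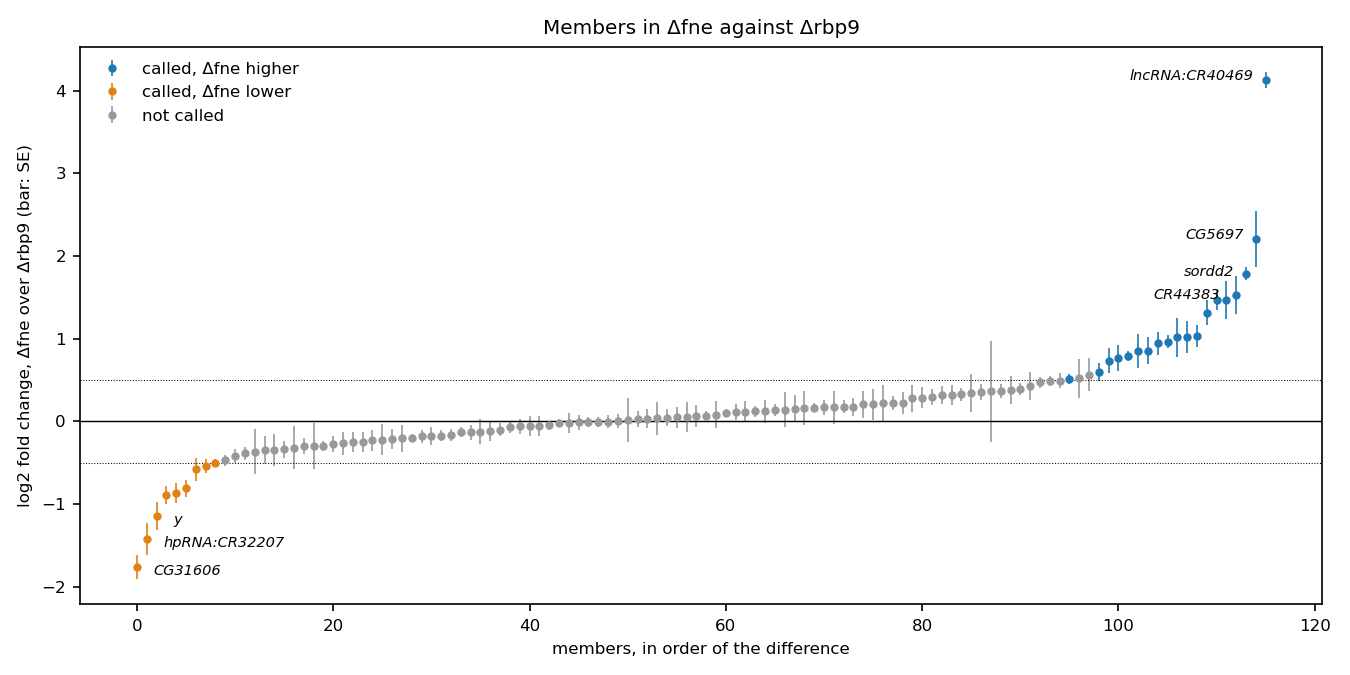
Log2 fold change of Δfne over Δrbp9 with its SE (vertical axis) for the 116 members, ordered from the lowest to the highest (horizontal axis), with calls by the quasi-likelihood F-test in blue (19 higher in Δfne) and orange (9 lower) and the thresholds of ±0.5 as dotted lines. lncRNA:CR40469 stands apart at 4.13.

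The other 88 members were not called between the single mutants, which does not show that they were equal. For Obp44a the difference was 0.07 ± 0.06, for BomBc1 -0.12 ± 0.15, for Rdh1 -0.01 ± 0.09, for gfzf -0.05 ± 0.06 and for conv -0.01 ± 0.06 (log2 fold change and SE). CG34327 (-0.47 ± 0.07), CG2993 (0.49 ± 0.06), Obp84a (0.49 ± 0.10) and CG5961 (0.47 ± 0.07) fell short by the fold threshold only. The difference of CG18180, 0.36 ± 0.62, had the widest error.

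By group means, ΔfneΔrbp9 did not stand in a fixed place relative to the single mutants. Its mean was above both of them in 36 members, between them in 46 and below both in 34. The highest of the 3 mutant means was in Δfne for 45 members, in ΔfneΔrbp9 for 36 and in Δrbp9 for 35. Both sets of counts rank means whatever the scatter of the replicates. They were not made for all genes, so they do not show that members differ from other genes in this. The ratio of the highest to the lowest mutant mean had a median of 1.27, was under 1.2 in 37 members and over 2 in 16. The ΔfneΔrbp9 mean was a median of 0.900 times the higher single mutant mean, with the upper end of this ratio fixed by the rule.

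Where the single mutants differed, ΔfneΔrbp9 was near Δfne for some members and near Δrbp9 for others. lncRNA:CR40469, CG5697, NijC and CG8539 had a ΔfneΔrbp9 mean near that of Δfne, with NijC at 47.9 CPM in ΔfneΔrbp9, 43.3 CPM in Δfne and 21.7 CPM in Δrbp9, against 8.33 CPM in wild type. Tep4, Cyp6a17, Cpr51A and CG13793 had one near that of Δrbp9. In 4 members ΔfneΔrbp9 was under 0.5 times the higher single mutant mean, namely CG14715, CG13793, CG8665 and CG18473. The first of these, CG14715, averaged 9.22 ± 0.803 CPM in ΔfneΔrbp9, 21.3 ± 2.11 CPM in Δfne and 17.05 ± 2.23 CPM in Δrbp9, against 2.94 ± 0.447 CPM in wild type. In w, the ΔfneΔrbp9 mean was 1.36 times that of Δfne, and this ratio was 1.4035 without the 4 libraries high in gut enzymes, just above the bound.

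The remaining members, with no role given here, were spread over the range. Those with a smallest fold of at least 2 were CG31809, CG9518, CG2641, CG5984 and CG14566. Those with a smallest fold under 2 were CG18467, CG11882, CG13563, CG9389, CG11380, CG34054, CR14033, asRNA:CR45161, CG2150, CG11961, CG32512, CG1307, CG15547, CG16799, CG16978, CG9400, CG7744, Su(P), CG7601, CG13071, CG14694, CG34454 and CG10026. Of all 116, the 3 IDs without a symbol, FBgn0261362, FBgn0030737 and FBgn0031464, could not be placed on a chromosome arm with the annotation used.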

How the data were processed

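Groups were taken from the sample titles, which name the genotype and a replicate number. The deposited table held raw counts per gene as whole numbers, made by the authors with the snakePipes RNA-seq module, STAR and featureCounts on dm6 and an Ensembl release 96 annotation, from stranded total RNA libraries depleted of ribosomal RNA. Tool versions, the strand setting and the treatment of reads that map to several places are not given in the sources used here. A further table holds the authors' own DESeq2 comparison of ΔfneΔrbp9 with wild type and was not used. Symbols, biotypes and coordinates came from the BDGP6 annotation of Ensembl release 115, the same assembly, which matched 113 of the 116 members. No genome sequence was used, so the planned search for promoter motifs was not run.

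CPM for the rule and for all levels was the count over the column total times 1e6. The test was edgeR's quasi-likelihood F-test (edgeR 4.0.16, limma 3.58.1, R 4.3.3), two-sided, with TMM factors and all 4 groups in 1 fit, on genes with a mean normalized count above 10. P-values were adjusted by Benjamini-Hochberg over all tested genes, and calls needed an adjusted p below 0.01 and an absolute log2 fold change above 0.5, the study's cutoffs. DESeq2 1.42.0 was an alternative, as were other scalings, filters, rule thresholds, sample sets and a replicate block. SEs are the absolute log2 fold change over the square root of F. The fit was tested on simulated counts. The closest pair of replicates differed by 5.47 in chi-square per degree of freedom, so none was a duplicate. The study's methods state 5 independent replicates per genotype. Total counts were 10289950 to 18757832 in ΔfneΔrbp9, 13482783 to 25325636 in Δfne, 13771301 to 18921712 in Δrbp9 and 15923472 to 21064462 in wild type, and the floor of 3 counts covers counting error only.

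The members and the gene lists (P450, glutathione transferase, UDP-glycosyltransferase, antimicrobial peptide, Bomanin, thioester-containing, peptidoglycan recognition, Turandot, heat shock, eye pigment, odorant-binding, cuticle, snoRNA and histone genes, and cell type markers) were chosen with earlier results of these data known. The spelling of some P450 and Bomanin names was repaired in the lists after the members had been seen. Genes were named by rule: the 12 members with the largest smallest fold, the 8 most abundant, the 5 with the largest difference on each side between Δfne and Δrbp9, members of the lists, those with at most 3 counts in every wild-type library, members whose neighbour or next neighbour was a member, the 3 genes on each side of the thresholds, fne and Rbp9, and list genes outside the set that were called in all 3 mutants. Other genes named were chosen after their values were seen.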

Additional observations from a re-analysis of the deposited data

Results flagged for a closer look

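Values of 1 library that stood apart from the other 4 of its genotype by Dixon's criterion were looked for in 25 named members, each in the 4 genotypes. Of these 100 sets 10 stood out, where chance gives about 1 in 20. CG18180 was at 59.4 CPM in Δfne replicate 5 with the other Δfne libraries at 2.82 to 6.30 CPM, at 23.4 CPM in Δrbp9 replicate 1 with the others at 7.77 to 12.1 CPM, and at 0.0475 CPM in wild-type replicate 2 with the others at 0.287 to 0.377 CPM. CG5697 was at 26.6 CPM in Δrbp9 replicate 4 with the others at 7.35 to 10.5 CPM, and at 2.89 CPM in wild-type replicate 3 with the others at 4.31 to 4.75 CPM. CG18473 was at 8.58 CPM in ΔfneΔrbp9 replicate 2 with the others at 3.76 to 4.71 CPM, and at 17.2 CPM in Δfne replicate 5 with the others at 13.1 to 14.1 CPM. CG8665 was at 44.2 CPM in Δfne replicate 2 with the others at 48.3 to 49.3 CPM. Obp44a was at 1340.0 CPM in Δfne replicate 2 with the others at 1412 to 1424 CPM. CG32444 was at 294.9 CPM in Δrbp9 replicate 4 with the others at 359 to 373 CPM. Of these libraries, Δfne replicate 5 and Δrbp9 replicate 1 are among the 4 with a gut enzyme sum above 100 CPM.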

How the results depend on the processing

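The number of members followed the fold threshold. It was 188 at 1.2-fold and 44 at 2-fold, in place of 116. It was 107 with TMM-scaled library sizes (without MFS3, AstCC, Spc105R, lncRNA:CR45911, CG6638, grass, CG34454, conv and CG2604), 124 at a mean count of at least 10, 80 at one of at least 100, 124 with no bound on the double mutant, and 112 to 130 when each library was left out in turn. The setting without the 4 libraries high in gut enzymes was chosen after seeing the data.

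Calls between Δfne and Δrbp9 among members were 28 under size factors by relative log expression, total count scaling, DESeq2, no count filter and a fit of the 2 groups alone, 26 without the 4 libraries high in gut enzymes, and 25 to 30 with each library left out. These totals are net, as a setting could lose some calls and gain others. Beyond the 28 called members, 5 other members were called under at least 1 alternative. Over 27 settings the 28 called members gave 756 values, of which 736 kept the call, 20 lost it (in Fdh, CG14752, Cyp6d2, NijC, Drsl4 and dpr21) and 0 reversed. Over all genes, leaving out a library gave 937 to 1046 calls in ΔfneΔrbp9, 796 to 939 in Δfne and 772 to 890 in Δrbp9 against wild type, and 771 to 905 between Δfne and Δrbp9. Replicate numbers did not pair the libraries (30 same-number correlations of deviations from group means, -0.41 to 0.58, with 6 of 20 libraries closest to their own number). With the replicate number as a block, 29 members were called between Δfne and Δrbp9 and 831 genes in all, with 994 in ΔfneΔrbp9, 844 in Δfne and 825 in Δrbp9 against wild type. Depth limits the lowest members, since 21 had a wild-type mean under 1 CPM.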
